A study of Mus musculus with 19 samples.

Results

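Duct and mesothelial marker genes were followed in pancreatic islets of C57BL/6 (B6) and C57BLKS/J (BLKS) mice kept in low or high glucose. The 9 genes are Spp1, Msln, Krt7, Krt8, Krt18, Krt19, Sox9, Muc1 and Cftr, taken from the 29742 gene names on the array, and every probe named for one of them was used, which gave 15 of 41174 probes. Islets of 12-week-old mice were kept for 48 h in 11 mM glucose and then for 24 h in 5 mM (low) or 20 mM (high) glucose. Groups were 5 B6 and 5 BLKS mice in low glucose and 5 B6 and 4 BLKS mice in high glucose, with islets of each mouse handled separately. Both are inbred strains, and BLKS has B6 and DBA ancestry. Portions of RNA from each mouse received Cy3 or Cy5 and were read on 2-colour Agilent arrays, and a value below is the log2 signal of a probe in a mouse, averaged over its dyes. A difference is called where the adjusted p of a limma fit over all 29326 tested probes is under 0.05.

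Ducts of the exocrine pancreas are lined by simple epithelium that carries bicarbonate fluid to the gut, and islets lie beside them in the lobules. The pancreas is covered by mesothelium, a flat epithelium of mesodermal origin. Both epithelia are built on pairs of type II and type I keratins, Krt7 and Krt8 being type II and Krt18 and Krt19 type I. Sox9 is a transcription factor of pancreatic progenitors that persists in ducts, Cftr is the chloride and bicarbonate channel of the duct surface, and Muc1 is a membrane mucin of that surface. Spp1 encodes osteopontin, a secreted phosphoprotein that binds integrins and CD44, and Msln encodes mesothelin, a surface protein of mesothelial cells. In whole islets, fewer cells of a type and less RNA per cell cannot be told apart.

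Libraries B6 low 4 and BLKS low 5, named here by strain, glucose and mouse number as labelled, went against their strain labels. At 103 probes called and over 2-fold different between strains in the high-glucose mice alone, with member probes left out, a mouse was placed between 0 (mean of B6 in high glucose) and 1 (mean of BLKS in high glucose). Library B6 low 4 lay at 0.99 and library BLKS low 5 at 0.01, whereas the other 9 B6 mice lay between -0.04 and 0.07 and the other 8 BLKS mice between 0.94 and 1.02. The high-glucose mice among them set the scale and so lie near its ends. The other low-glucose mice, which did not set it, lay between -0.021 and 0.071 in B6 and between 0.945 and 1.016 in BLKS. All mice were analysed as labelled, and the results for the member genes are given also without both libraries. A B6 and a BLKS mouse of equal number and glucose shared each of 9 array pairs, with dyes exchanged between the arrays. The mice are separate animals, and their number in each group limits the precision.

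Sequences before the start of 4 genes are shown because Spp1, Krt8 and Krt18 were called by strain at both glucose concentrations and by glucose in B6 islets once libraries B6 low 4 and BLKS low 5 were left out, and Krt7 is the keratin with no strain difference called by the same fit with or without them. They are the 250 bases before the annotated start in RefSeq (GRCm38.p6): chr5:104434861-104435110 on the plus strand for Spp1, chr15:102004343-102004592 on the minus strand for Krt8, chr15:102027966-102028215 on the plus strand for Krt18 and chr15:101412153-101412402 on the plus strand for Krt7. RefSeq lists another start for Spp1, whose window is not shown. Capitals mark matches on either strand to a TATA box, spelled TATAAA, or to the motif CCAAT. They also mark a GC box, for which the letters GGGCGG were searched. An E-box was searched as CANNTG, and the site of the factor AP-1 as TGANTCA. None of these motifs contains another.
Spp1: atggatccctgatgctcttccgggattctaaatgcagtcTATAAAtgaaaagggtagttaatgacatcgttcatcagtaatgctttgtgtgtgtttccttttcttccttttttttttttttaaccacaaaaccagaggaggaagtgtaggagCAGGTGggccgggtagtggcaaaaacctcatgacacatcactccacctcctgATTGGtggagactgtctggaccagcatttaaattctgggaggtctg
Krt8: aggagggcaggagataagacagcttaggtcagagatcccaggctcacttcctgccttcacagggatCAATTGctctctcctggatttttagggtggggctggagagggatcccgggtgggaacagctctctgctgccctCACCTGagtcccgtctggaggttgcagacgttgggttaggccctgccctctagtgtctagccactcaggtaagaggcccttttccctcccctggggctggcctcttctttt
Krt18: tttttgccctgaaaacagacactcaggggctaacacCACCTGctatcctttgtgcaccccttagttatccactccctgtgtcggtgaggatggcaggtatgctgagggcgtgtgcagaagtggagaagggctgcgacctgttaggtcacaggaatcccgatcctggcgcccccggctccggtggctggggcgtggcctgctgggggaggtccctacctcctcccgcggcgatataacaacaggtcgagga
Krt7: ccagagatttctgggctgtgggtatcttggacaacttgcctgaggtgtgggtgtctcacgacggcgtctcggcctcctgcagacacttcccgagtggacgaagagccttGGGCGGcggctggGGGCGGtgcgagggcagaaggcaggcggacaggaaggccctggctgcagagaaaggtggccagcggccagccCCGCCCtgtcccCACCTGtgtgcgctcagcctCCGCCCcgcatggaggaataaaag
The Spp1 window holds 1 TATA box match 211 bases before the start, 1 E-box and 1 CCAAT box match, the last starting 46 bases before the start. The Krt7 window holds 4 GC box matches and 1 E-box, whereas the Krt8 window holds 2 E-boxes and the Krt18 window 1, with none of the other motifs. Among all 32851 windows of the same length, 12.4% hold the TATA box, 33.8% the CCAAT box, 32.7% the GC box, 66.2% the E-box and 6.75% the AP-1 site. These matches are descriptions of the letters in each window.

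Of the 15 probes, 11 probes of 8 genes were well above background in at least 4 mice and were tested. Spp1, Msln, Krt7, Krt8, Krt18, Krt19 and Muc1 each had a probe well above background in all 19 mice. Both Cftr probes stayed at the level of the negative controls, whose median log2 signal per array was 5.67 to 5.93: Cftr (A_51_P305896) ranged from 5.80 to 5.97 and passed in 1 mouse, and Cftr (A_52_P452881) ranged from 5.79 to 5.94 and passed in 0 mice. These probes give no level for this channel of the duct surface. Sox9 was also dim, with 1 probe (A_52_P214630) well above background in 17 mice at 5.99 to 6.51, another (A_52_P577484) in 9 mice at 5.92 to 6.28, and the last (A_51_P451606) in 3 mice and not tested. For Muc1, A_51_P467346 lay between 6.49 and 6.83, and A_52_P58208 passed in 1 mouse and was not tested. The keratins Krt7 (A_51_P312348, 13.50 to 13.84), Krt18 (12.88 to 13.46) and Krt8 (A_51_P242399, 11.84 to 12.60) were far brighter than these duct markers. Which cells gave the keratin signals was not tested.

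**Figure D1:**
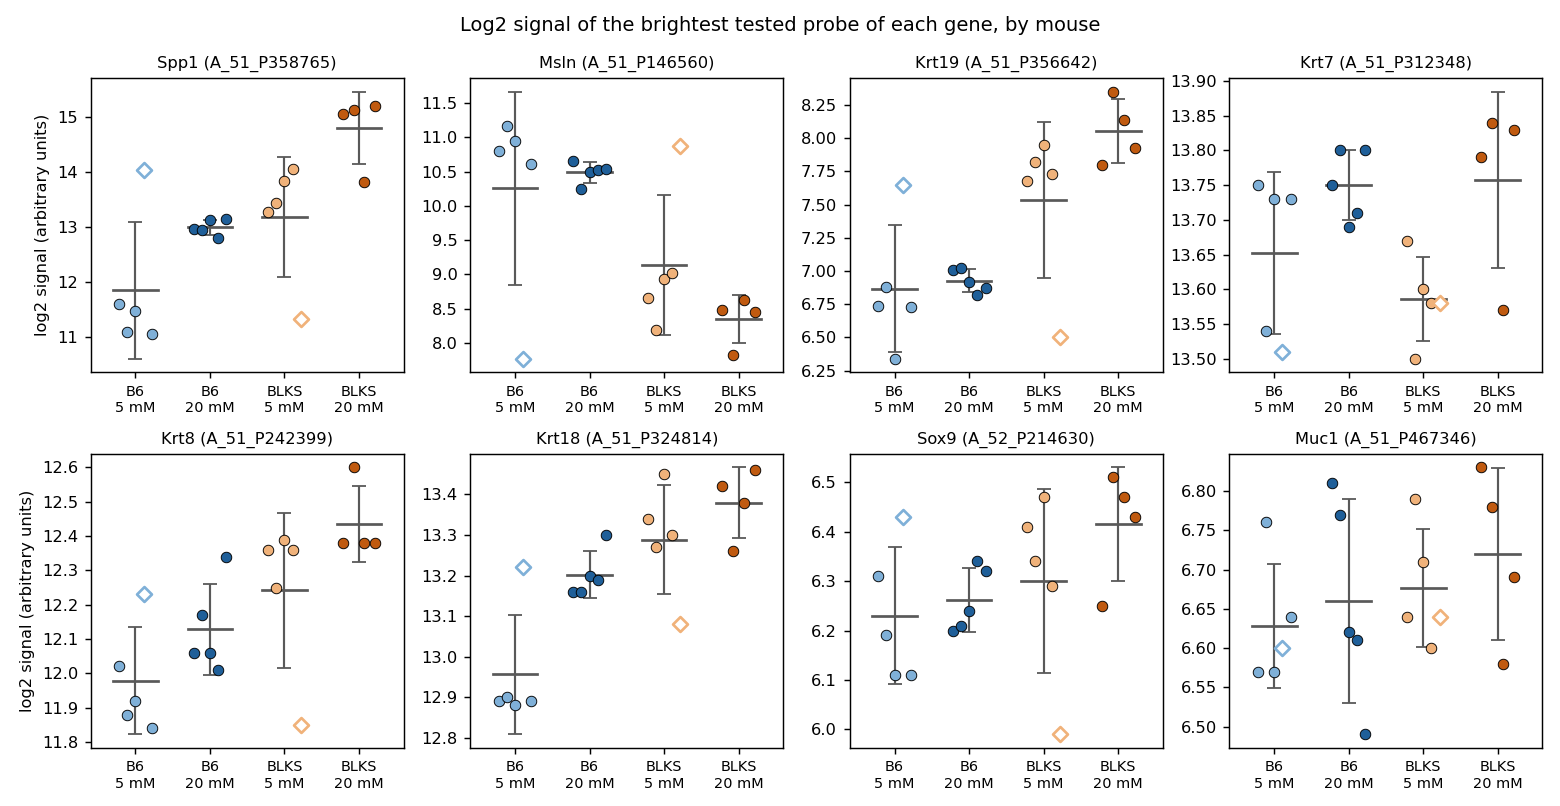
Log2 signal (vertical axis, arbitrary units) of the brightest tested probe of each of 8 genes in every mouse, by strain and glucose concentration; bars are the mean and error bars the SD of a group as labelled. Open diamonds are libraries B6 low 4 and BLKS low 5, and at Spp1, Msln, Krt8, Krt18 and Krt19 each lies on the side of the other strain.

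In high glucose, BLKS islets had more Spp1 and Krt19 and less Msln RNA signal than B6 islets, and no other member was called. These are 3 of 11 probes, 2 higher and 1 lower, where 11.1% of all tested probes were called, 4.98% higher and 6.13% lower. Members were chosen with earlier results of these data known, so the counts are no support for an excess over that share. The median difference of the 11 probes was 0.15 on the log2 scale, against 0.006 over all tested probes. The groups did not overlap at 5 of the 11 probes, and at 14.4% of all tested probes. Without both low-glucose libraries, which enter this contrast only through the shared estimate of the spread, 6 of 11 probes were called, 5 higher and 1 lower, against 15.3% of all probes, 6.93% higher and 8.35% lower.

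Spp1 (A_51_P358765) in high glucose had a log2 signal of 12.96, 12.94, 13.13, 12.81 and 13.14 in the B6 mice. In the BLKS mice its log2 signal was 15.05, 15.12, 13.81 and 15.19. Every BLKS mouse lay above every B6 mouse, with BLKS high glucose 3 nearest to B6. The means were 13.00 ± 0.14 (SD, n = 5) and 14.79 ± 0.66 (SD, n = 4), a difference of 1.80 with an SE of 0.55 or 3.47-fold (limma, adjusted p = 0.0411). An exact 2-sided permutation test of the same values gave p = 0.0159, the smallest that 126 divisions allow. The call depended on which mice were left out. Without any 1 of the 5 B6 mice of high glucose, or without BLKS high glucose 1, 2 or 4, it was lost. The adjusted p was then 0.0623 to 0.11 and the difference 1.66 to 1.83. Without library B6 low 4 alone the adjusted p was 0.00622, and without library BLKS low 5 alone it was 0.0126. Without both low-glucose libraries it was 2.87e-05, with an SE of 0.23.

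Msln (A_51_P146560) had the opposite direction. Its log2 signal in high glucose was 10.66, 10.25, 10.49, 10.52 and 10.54 in the B6 mice and 8.48, 7.83, 8.63 and 8.45 in the BLKS mice, and the groups lay far apart. The mean was 10.49 ± 0.15 (SD, n = 5) in B6 and 8.35 ± 0.36 (SD, n = 4) in BLKS islets, so that Msln was lower in BLKS by 4.42-fold (log2 difference -2.14, SE 0.56, limma adjusted p = 0.0189, exact permutation p = 0.0159). Leaving out BLKS high glucose 2 gave -1.97 with an adjusted p of 0.0571, and the call was kept without any other single mouse.

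Among the keratins, the type I keratin Krt19 (A_51_P356642) differed most. In high glucose its log2 signal was 7.01, 7.02, 6.92, 6.82 and 6.87 in B6 and 7.80, 8.35, 8.14 and 7.93 in BLKS mice, with a clear gap between the groups. The difference was 1.13 with an SE of 0.25 or 2.19-fold (limma, adjusted p = 0.00854, exact permutation p = 0.0159), and it was called without each mouse in turn. The B6 signals lay not far above the negative controls at 5.67 to 5.93, and background was not subtracted. The size of this difference may therefore be compressed.

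Krt8 and Krt18 are partners in one filament and their genes lie next to each other, with 0 protein-coding genes between them in the RefSeq table. The Krt8 probe A_51_P242399 read 12.06, 12.17, 12.06, 12.01 and 12.34 in B6 and 12.38, 12.60, 12.38 and 12.38 in BLKS mice of high glucose. All BLKS mice lay above all B6 mice, by a narrow margin over B6 high glucose 5. Its log2 difference of 0.31 (SE 0.10) was not called (limma, adjusted p = 0.0578), and it was called without B6 high glucose 5 (0.36, adjusted p = 0.0357), without library B6 low 4 (0.31, adjusted p = 0.0363) or without library BLKS low 5 (0.31, adjusted p = 0.0124). The other Krt8 probe, A_51_P242400, gave 0.30 with an SE of 0.11 (adjusted p = 0.0848), again without overlap of the groups, and it was called without library BLKS low 5 (adjusted p = 0.0158). Krt18 (A_51_P324814) gave 0.18 with an SE of 0.07 (adjusted p = 0.135), with overlap, and it was called without library B6 low 4 (adjusted p = 0.0491). Without both libraries, the limma adjusted p was 0.00267 and 0.00244 for the Krt8 probes and 0.0113 for Krt18. With all mice and array pair as a block, both Krt8 probes were called (adjusted p = 0.00692 and 0.0162 with a fixed, 0.00173 and 0.00507 with a random block), as was Krt18 with the random block (0.0221), in fits that called 20.8% and 25.2% of all probes.

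Krt7, a type II keratin listed here as a duct marker, gave no called strain difference in high glucose. Its probes had log2 differences of 0.00 (A_51_P312348, SE 0.06) and 0.09 (A_52_P410685, SE 0.07), and both overlapped between strains. Sox9 gave 0.15 (A_52_P214630, SE 0.08) and 0.10 (A_52_P577484, SE 0.06), and Muc1 (A_51_P467346) gave 0.06 with an SE of 0.07. None of these 5 probes was called with or without both libraries.

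**Figure D2:**
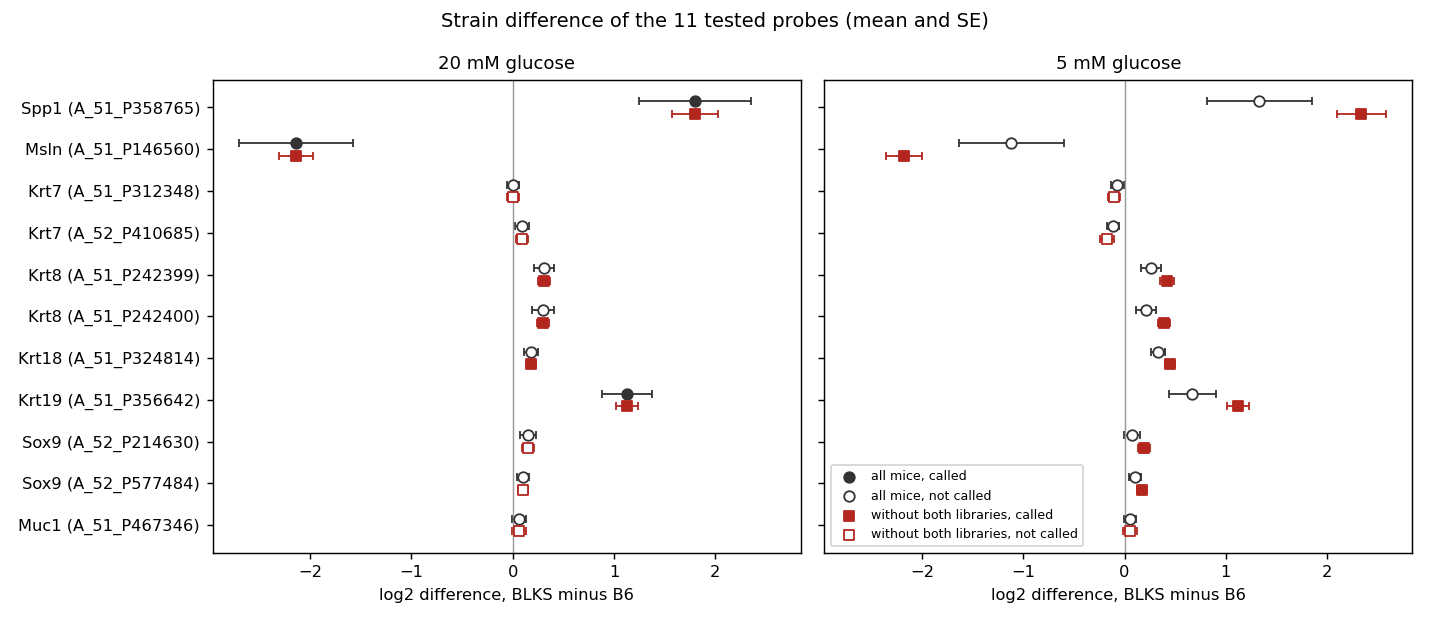
Log2 difference between strains, BLKS minus B6 (horizontal axis), with its SE for the 11 tested probes in 20 mM (left) and 5 mM glucose (right), for all mice and without both libraries; filled symbols have an adjusted p under 0.05. In 5 mM glucose the differences of Spp1, Msln, Krt8, Krt18 and Krt19 lie farther from 0 without both libraries.

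In low glucose, 0 of the 11 probes were called by limma between strains as labelled, and 0 of all tested probes (0.0%), although 5 of the 11 and 4709 of all tested probes had an unadjusted p under 0.05. At 0 of the 11 probes, and 1.2% of all probes, the groups did not overlap. Without both libraries, Spp1, Krt8, Krt18, Krt19 and Sox9 were higher and Msln was lower in BLKS islets. These were 8 of 11 probes, 7 higher and 1 lower, against 15.6% of all probes, 7.05% higher and 8.57% lower, and the groups did not overlap at 7 of them, against 18.0% of all probes. The 8 and the 7 both include Sox9 (A_52_P577484), which was well above background in 0 of 4 B6 and 4 of 4 BLKS mice here. It passed the filter mainly through BLKS mice, so its part in these counts is no support for a difference.

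Spp1 in low glucose read 11.60, 11.10, 11.48 and 11.06 in the other B6 mice and 14.03 in library B6 low 4. In the BLKS mice it read 13.28, 13.43, 13.83 and 14.06, and 11.33 in library BLKS low 5. Each of these libraries fell within the range of the other strain. As labelled, the log2 difference was 1.33 with an SE of 0.52 (limma, adjusted p = 0.209, exact permutation p = 0.151), and without both libraries it was 2.34 with an SE of 0.24, or 5.06-fold (adjusted p = 2.4e-06, exact permutation p = 0.0286, the smallest that 70 divisions allow). Leaving out library B6 low 4 alone gave 1.88 (adjusted p = 0.00806), and leaving out library BLKS low 5 alone gave 1.80 (adjusted p = 0.022).

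Msln read 10.80, 11.17, 10.95 and 10.61 in the other B6 mice and 7.77 in library B6 low 4. The BLKS mice read 8.66, 8.19, 8.94 and 9.02, and library BLKS low 5 read 10.88. Its log2 difference was -1.12 (SE 0.52, limma adjusted p = 0.3) as labelled and -2.18 (SE 0.18, adjusted p = 1.31e-07) without both libraries, or 4.53-fold lower in BLKS islets. Without library B6 low 4 alone it was -1.75 (adjusted p = 0.00622), and without library BLKS low 5 alone it was -1.56 and not called (adjusted p = 0.0519).

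For Krt19, the other B6 mice read 6.74, 6.88, 6.34 and 6.73 in low glucose, and library B6 low 4 read 7.65. The other BLKS mice read 7.68, 7.82, 7.95 and 7.73, and library BLKS low 5 read 6.50. Krt19 differed by 0.67 (SE 0.23, limma adjusted p = 0.179) as labelled and by 1.12 (SE 0.11, adjusted p = 1.62e-06) without both libraries, close to its 1.13 in high glucose. With library B6 low 4 left out alone it was 0.87 (adjusted p = 0.0163), and with library BLKS low 5 left out alone 0.93 (adjusted p = 0.00829).

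Krt18 had the lowest unadjusted p of the members in low glucose, with a log2 difference of 0.33 as labelled (SE 0.07, limma adjusted p = 0.123) and 0.45 without both libraries (SE 0.05, adjusted p = 3.01e-06). It was called without either library alone, at 0.40 (adjusted p = 0.00352) without library B6 low 4 and 0.38 (adjusted p = 0.00829) without library BLKS low 5. Its values were tight in B6, at 12.89, 12.90, 12.88 and 12.89 beside 13.22 in library B6 low 4. In BLKS they were 13.34, 13.27, 13.45 and 13.30 beside 13.08 in library BLKS low 5. The Krt8 probes gave 0.26 and 0.21 as labelled and 0.42 and 0.39 without both libraries (adjusted p = 0.000269 and 0.000352). Krt8 (A_51_P242399) was called without either library alone, at 0.32 and 0.36, and Krt8 (A_51_P242400) without library BLKS low 5 at 0.32.

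Sox9 (A_52_P214630) was called in low glucose without both libraries, with a small difference of 0.19 (limma adjusted p = 0.0335, exact permutation p = 0.0571) on signals close to background. The groups overlapped. The other tested Sox9 probe, A_52_P577484, also passed (adjusted p = 0.0393), but it was well above background in 0 of 4 B6 and 4 of 4 BLKS mice, so that it gives no measured size of a difference. Krt7 stood at -0.10 (A_51_P312348) and -0.17 (A_52_P410685, adjusted p = 0.091), and Muc1 at 0.05, and these 3 probes were not called. With array pair as a random block and both libraries left out, Krt7 (A_52_P410685) was called at -0.17 (adjusted p = 0.019), in a fit that called 25.4% of all probes.

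Within array pairs, a B6 and a BLKS mouse shared arrays. In all 7 pairs without both libraries the strain difference kept its direction for Spp1, Msln, both Krt8 probes, Krt18, Krt19 and Sox9 (A_52_P214630). The share of all tested probes that did so was not counted. Over these pairs the log2 difference, BLKS minus B6, ranged from 0.68 to 2.38 for Spp1, from -2.97 to -1.86 for Msln and from 0.79 to 1.61 for Krt19. Krt18 ranged from 0.10 to 0.57, and Sox9 (A_52_P214630), on signals close to background, from 0.05 to 0.35. On the 2 pairs that hold those libraries, Spp1 differed by 0.03 to 0.27 and Msln by 0.26 to 1.25. Krt7 (A_52_P410685) was higher in BLKS in 3 of 7 pairs. With a fixed term for array pair in limma, and these 2 pairs left out, 6 of 11 probes were called in high and 6 in low glucose, against 22.1% and 16.4% of all tested probes.

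In response to high glucose, a rise was called for Krt18 in B6 islets and for 1 Krt7 probe (A_52_P410685) in BLKS islets. Both counts are near the share of all tested probes, and none of the 11 was called as labelled for a difference between strains in response. In B6, 1 of the 11 probes was called, where 9.53% of all tested probes were (5.41% higher, 4.12% lower), and in BLKS 1 of 11, where 11.6% were (6.48% higher, 5.13% lower). Without both libraries the counts were 3 of 11 in B6, against 12.2% of all probes (6.56% higher, 5.63% lower), and 2 of 11 in BLKS, against 9.9% (5.55% higher, 4.35% lower). All calls were rises. The groups did not overlap at 0 of 11 probes in B6 and 1 of 11 in BLKS, against 7.45% and 13.3% of all probes. Without both libraries these were 3 of 11 and 1 of 11, against 11.7% and 15.5%.

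Krt18 read 12.89, 12.90, 12.88, 13.22 and 12.89 in low and 13.16, 13.16, 13.20, 13.19 and 13.30 in high glucose in B6 islets. Library B6 low 4 alone reached into the high-glucose range. The rise was 0.25 with an SE of 0.07 or 1.19-fold (limma, adjusted p = 0.0291, exact permutation p = 0.0397), and 0.31 without both libraries (adjusted p = 0.000179). Without any 1 of B6 low glucose 1, 2, 3 or 5, or of B6 high glucose 3 or 5, the adjusted p was 0.057 to 0.0778 and the difference 0.22 to 0.25. In BLKS islets the difference was 0.09 (SE 0.07, adjusted p = 0.472). The difference between the responses was -0.15 as labelled and -0.27 without both libraries (limma, adjusted p = 0.22), and it was called at -0.26 only where array pair was a random block and both libraries were left out.

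Krt7 (A_52_P410685) read 10.52, 10.50, 10.62, 10.69 and 10.67 in low and 10.88, 11.03, 10.75 and 10.86 in high glucose in BLKS islets. The groups did not overlap. It rose by 0.28 on the log2 scale (SE 0.07, limma adjusted p = 0.00984, exact permutation p = 0.0159) or 1.22-fold, and it was called without each mouse in turn. Its other probe, A_51_P312348, gave 0.17 (SE 0.06, adjusted p = 0.0751) with overlap, and 0.23 (adjusted p = 0.0113) without BLKS high glucose 3. In B6 islets its probes gave 0.10 and 0.08 and were not called.

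The Spp1 signal was higher in high than in low glucose in both strains by the means, but the rise was not called as labelled. Its log2 response was 1.14 (SE 0.52, limma adjusted p = 0.203, exact permutation p = 0.0476) in B6 and 1.60 (SE 0.55, adjusted p = 0.0658, exact permutation p = 0.0476) in BLKS islets. Without both libraries it was 1.68 (SE 0.23, adjusted p = 0.000118, exact permutation p = 0.0159) or 3.21-fold in B6, with no overlap. In BLKS islets it was then 1.14 (SE 0.24, adjusted p = 0.00543, exact permutation p = 0.0857) or 2.21-fold. The BLKS groups overlapped, since BLKS high glucose 3 at 13.81 lay within the low-glucose range. Left out alone, library B6 low 4 gave a call in both strains (1.68 with an adjusted p of 0.0112 in B6, 1.60 with 0.013 in BLKS), and the BLKS response was called also without BLKS low glucose 4 (1.82, adjusted p = 0.046) or BLKS high glucose 3 (1.93, adjusted p = 0.0403). The responses of the strains differed by 0.46 as labelled and by -0.54 without both libraries, and neither was called.

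**Figure D3:**
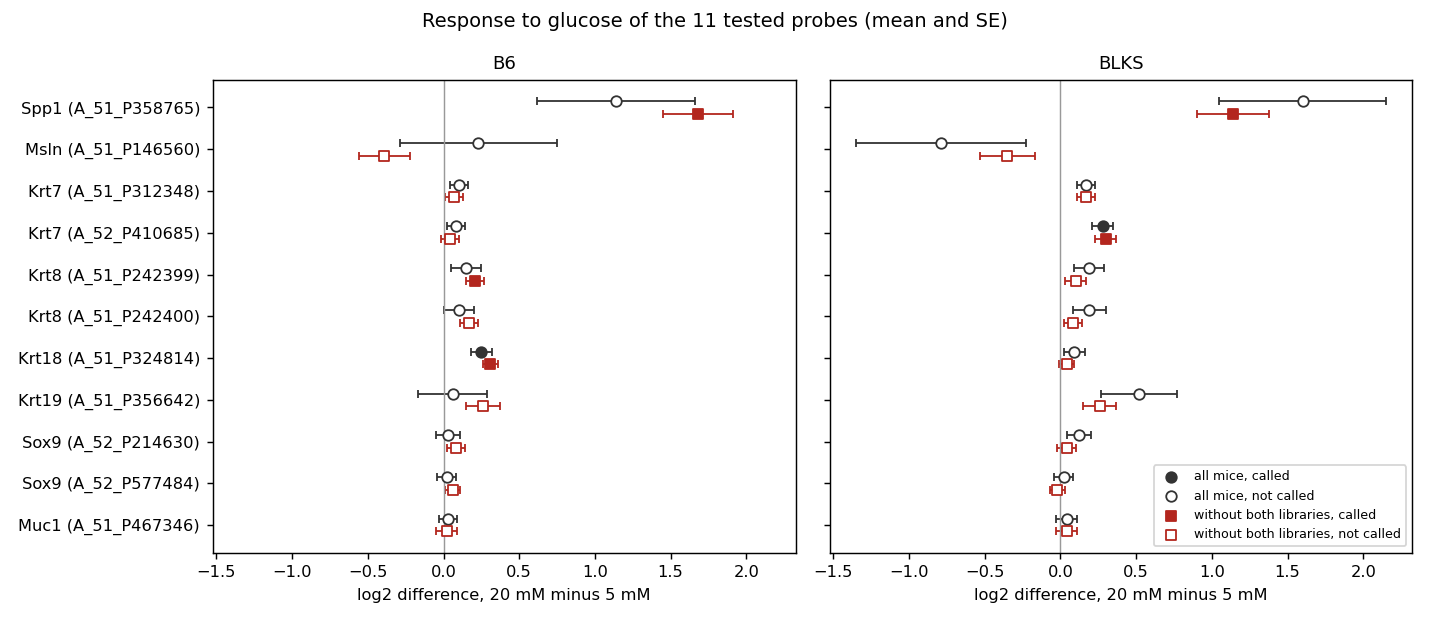
Log2 difference between 20 and 5 mM glucose (horizontal axis) with its SE for the 11 tested probes in B6 (left) and BLKS islets (right), for all mice and without both libraries; filled symbols have an adjusted p under 0.05. Krt18 is called in B6 and Krt7 (A_52_P410685) in BLKS islets in both fits.

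The other members gave no called response as labelled. Msln stood at 0.23 in B6 and -0.79 in BLKS, and at -0.39 and -0.35 without both libraries. Krt19 stood at 0.06 and 0.52, and at 0.26 in both strains without both libraries (limma, adjusted p = 0.147 in B6 and 0.179 in BLKS). Krt8 (A_51_P242399) gave 0.15 in B6, and 0.21 with a call without both libraries (adjusted p = 0.0434). Sox9 and Muc1 ranged from 0.02 to 0.12. Of the 11 probes, 0 differed between strains in their response by limma, against 0.0409% of all tested probes (0.0136% higher, 0.0273% lower), and 1 had an unadjusted p under 0.05, Krt7 (A_52_P410685) at 0.20. Without both libraries it was again 0 of 11, against 0.058% of all probes (0.0% higher, 0.058% lower), with 2 at an unadjusted p under 0.05.

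By group means as labelled, the order of Spp1 was 11.85 in B6 low, 13.00 in B6 high, 13.19 in BLKS low and 14.79 in BLKS high glucose, and each group overlapped its neighbours in this order. Without both libraries the means of the low-glucose groups were 11.31 in B6 and 13.65 in BLKS islets, and then the BLKS groups alone overlapped. Msln ran as labelled from 10.49 in B6 high and 10.26 in B6 low to 9.14 in BLKS low and 8.35 in BLKS high glucose, with overlap of all neighbours. Without both libraries it was highest in B6 low glucose at 10.88, with 8.70 in BLKS low glucose, and groups overlapped within a strain but not between strains. Krt8 (A_51_P242399), Krt18 and Krt19 followed the order of Spp1 in both cases. As labelled, all neighbours of these 3 genes overlapped too. Without both libraries those of Krt8 still did, those of Krt18 did except for the B6 groups, and those of Krt19 did except between B6 high at 6.93 and BLKS low glucose at 7.80.

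Whether the genes varied together among mice of the same group was asked of the brightest tested probe of 8 genes, as deviations from the group mean. Over 17 mice without both libraries, 0 of 28 pairs passed Benjamini-Hochberg adjustment of a permutation test with 100000 resamples within groups, by Pearson's r or Spearman's rho. By Pearson's r, 0 pairs had an unadjusted p under 0.05, and by Spearman's rho Krt7 with Krt8 did (rho = 0.57, permutation p = 0.0201, adjusted 0.563, with r = 0.50). Pearson's r ranged from -0.38 to 0.63, and 14 of 28 pairs were above 0. The highest was Spp1 with Krt7 (r = 0.63, permutation p = 0.0714, adjusted 0.642; rho = 0.41, permutation p = 0.174; r = 0.57 without the 2 mice farthest from the median of Spp1). Krt8 and Krt18, the filament partners, gave r = 0.10 (permutation p = 0.711; rho = 0.25). With all 19 mice, 10 of 28 pairs passed, among them Krt8 with Sox9 (r = 0.81) and Spp1 with Krt8 (r = 0.80). These relations rest on libraries B6 low 4 and BLKS low 5, since none passed without them.

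**Figure D4:**
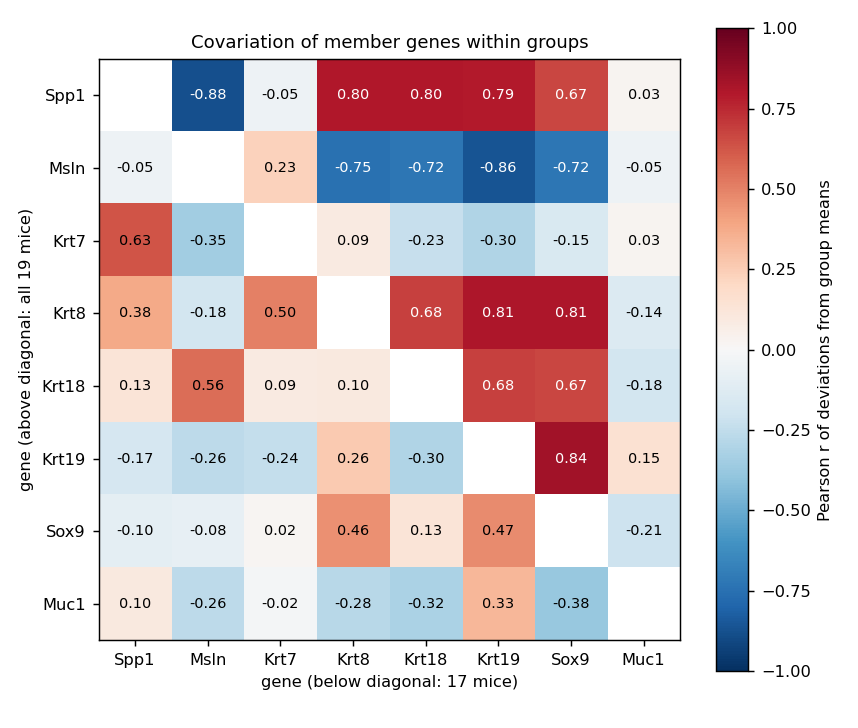
Pearson correlation (colour and number) between the deviations from group means of 8 member genes, over 17 mice without both libraries below the diagonal and over all 19 mice above it. The values above the diagonal reach -0.88 for Spp1 with Msln, against -0.05 below it.

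The genes most like Spp1 over the 17 mice, by Pearson's r of the log2 values of single probes, were Hspb6 (0.979), Dclk1 (0.972), Armcx3 (0.969), Nptx2 (0.968) and Derl3 (0.968). Of these, Nptx2, a neuronal pentraxin, had the largest differences. With all mice they were 1.24 between strains in high glucose and 1.13 between glucose concentrations in BLKS islets. Over the 17 mice they were 1.24 and 0.87. Derl3, which serves the degradation of misfolded proteins of the endoplasmic reticulum, stood at 0.92 and 0.76 with all mice, and at 0.92 and 0.56 over the 17 mice. Those most like Msln were Rnf138rt1 (0.983), A1cf (0.979), Riiad1 (0.975), Plaat3 (0.971) and Bcl6b (0.970), and their log2 differences between strains in high glucose ran from -1.25 (Bcl6b) to -0.47 (Riiad1). These points share strain and glucose as sources of variation, so these values describe group means as well as single mice.

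Genes next to the members on the chromosome were read in the same way, for the 5 nearest tested genes on each side in the order of the RefSeq table. Of all tested probes, 11.1% were called between strains in high glucose as labelled. Without both libraries the shares were 15.3% in high and 15.6% in low glucose. Beside Spp1, 1 of 10 was called in high glucose, Nudt9 at 0.20, and the 10 ranged from -0.27 to 0.20, and without both libraries Dmp1 (0.11) was called too. Beside Msln, 1 of 10 was called, Lmf1 at 0.73, the opposite direction to Msln. Mslnl, the mesothelin-like gene that is its nearest tested neighbour, had log2 differences of -0.23 (limma, adjusted p = 0.0663) in high and -0.24 in low glucose, and without both libraries it was called in both at -0.23 and -0.38. Rpusd1 was likewise called without both libraries, at -0.22 in high and -0.32 in low glucose, and Lmf1 (0.70), Chtf18 (-0.18) and Ciao3 (-0.17) in low glucose. Beside Krt7, 0 of 10 were called as labelled, and without both libraries Krt80 was called at -0.31 in high and -0.51 in low glucose, and Nr4a1 (0.66), Krt86 (0.28) and Krt84 (-0.19) in low glucose. Beside Krt19, 0 of 10 were called as labelled, and without both libraries Krt13 was called at 0.23 in high and 0.28 in low glucose. The neighbours of Krt8 and Krt18, other than each other, ranged from -0.11 to 0.07 in high glucose with no call as labelled, and Csad was called in low glucose without both libraries (-0.37). Near Sox9, Slc39a11 (0.36) was called, and near Cftr, Cav1 (-0.28) and St7 (0.22). These 3 were called without both libraries too, and Cav1 then also in low glucose (-0.36). In low glucose as labelled 0 neighbours of any member were called by limma.

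Other genes of duct epithelium, from a list of 44 of which 37 were tested, were called in both directions. In high glucose 11.1% of all tested probes were called, and 15.3% without both libraries. Of the duct genes, 10 were higher and 4 lower in BLKS without both libraries. As labelled 4 were higher and 3 lower, with a median difference of 0.03, against 0.006 over all tested probes. Among them the tight junction genes Cldn3 (0.46, limma adjusted p = 0.00762) and Cldn7 (0.42, adjusted p = 0.0111) and the membrane protease gene St14 (0.40, adjusted p = 0.00261) were higher, and Ambp was lower (-0.76, adjusted p = 0.0196). In low glucose as labelled 0 were called by limma. Without both libraries 10 were higher and 6 lower, where 15.6% of all tested probes were called. There Lcn2 (1.91), a secreted lipocalin, and Clu (1.06), a secreted chaperone, differed most. In response to glucose, Prom1 rose in both strains, by 0.56 in B6 and 0.57 in BLKS, and Epcam (0.37) and St14 (0.34) rose in BLKS islets. The list's mean log2 signal ranged from 7.79 to 7.91 in B6 low, 7.85 to 7.94 in B6 high, 7.82 to 7.95 in BLKS low and 7.94 to 8.01 in BLKS high glucose.

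Of 29 other mesothelial genes, 19 were tested, and the defining markers Upk3b, Upk1b, Wt1, Lrrn4, Bnc1 and Pdpn were not well above background in the 4 mice required. In high glucose 1 was higher and 2 were lower in BLKS, and 3 and 3 without both libraries. Of all tested probes 11.1% were called as labelled and 15.3% without both libraries. Nkain4 was higher (0.42, limma adjusted p = 0.00484), and Cav1 (-0.28, adjusted p = 0.0284) and Thbd (-0.27, adjusted p = 0.0144), which endothelium also expresses, were lower. The median difference was 0.03, and 11 of the 19 were above 0. Complement C3 rose with glucose in B6 (0.75, adjusted p = 0.00785) and BLKS islets (0.62, adjusted p = 0.0318), and Slpi (0.74, adjusted p = 0.0486) and Nkain4 (0.28) rose in BLKS; without both libraries Slpi was not called (0.67, adjusted p = 0.105). In low glucose as labelled 0 were called by limma, and 3 higher and 3 lower without both libraries, led by C3 at 0.85. Without both libraries 15.6% of all tested probes were called in low glucose.

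Most partners of the members did not pass the test, with 13 of 16, 16 of 19 and 16 of 19 not called in the lists below, where 11.1% of all tested probes were called. Of 16 tested receptors and relatives of osteopontin, 0 were higher and 3 lower in BLKS islets of high glucose. The receptor Cd44 was the lowest (-0.89, limma adjusted p = 0.00439, and -0.92 in low glucose without both libraries), opposite in direction to Spp1, followed by F2 (-0.43) and Mmp2 (-0.25), which are not receptors. Of 19 tested keratin and junction partners, 1 was higher (Pkp3, 0.17) and 2 were lower (Vim, -0.94, and Pkp2, -0.31). Vim encodes the intermediate filament protein of mesenchymal cells. Krtcap2 rose with glucose in both strains, by 0.55 in B6 and 0.62 in BLKS. It is not itself a keratin, and its place among keratin partners was not tested. Of 19 tested CFTR partners, 1 was higher (Atp1b1, 0.30) and 2 were lower (Adora2b, -0.31, and Gopc, -0.18), and Snap23 rose with glucose in B6 (0.26) and BLKS islets (0.36). Without both libraries 15.3% of all tested probes were called in high and 15.6% in low glucose. Counts higher and lower in high glucose were then 1 and 3 of the osteopontin, 2 and 3 of the keratin and 3 and 2 of the CFTR list. In low glucose they were 2 and 3, 3 and 2, and 3 and 2. Among these, Ezr, which links membrane proteins to actin, was higher at 0.36 in high and 0.54 in low glucose.

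Markers of other cell types that an islet preparation can hold were read beside the members. Between strains in high glucose 11.1% of all tested probes were called, 4.98% higher and 6.13% lower. In high glucose, 7 of 13 endothelial genes were lower and 0 higher in BLKS, with a median of -0.37, led by Eng (-0.58), Robo4 (-0.48), Cdh5 (-0.46) and Vwf (-0.42), and their mean log2 signal was 7.46 to 7.62 in BLKS against 7.73 to 7.94 in B6 islets. Of 17 stellate and fibroblast genes 6 were lower and 0 higher, with a median of -0.26, led by Col1a1 (-1.34), Postn (-1.16), Col1a2 (-1.05) and Col3a1 (-0.95), with means of 7.43 to 7.92 in BLKS and 7.91 to 8.33 in B6 islets. Acinar genes had a median of 0.17, with 1 of 24 higher (Cela1, 0.74) and 0 lower, and means of 7.15 to 7.62 in BLKS and 7.03 to 7.35 in B6 islets.

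Among 33 endocrine genes 3 were higher (Ptprn, 0.68) and 3 lower (Cpe, -0.64, Slc2a2, -0.59, and Scg5, -0.43), with means of 12.05 to 12.23 in BLKS and 12.12 to 12.28 in B6 islets. Of 18 macrophage and leukocyte genes 0 were higher and 2 lower (Lyz2, -0.76, and C1qa, -0.37). In high glucose the ranges of the endothelial means did not overlap between strains, those of the fibroblast means met at their ends and those of the acinar means overlapped, and the part of these cell types in the members' results was not tested. In low glucose as labelled 0 genes of these 5 lists were called by limma. Without both libraries, 6 endothelial genes were lower there, led by Kdr (-0.43) and Robo4 (-0.40), 3 acinar genes were higher, led by Cela1 (0.76), and 0 fibroblast genes were called. Endocrine genes were called 3 higher and 4 lower, and macrophage and leukocyte genes 1 higher and 2 lower. In high glucose these counts without both libraries were 8 endothelial and 6 fibroblast genes lower, 2 acinar genes higher, 3 endocrine genes higher and 3 lower, and 2 macrophage and leukocyte genes lower. Of all tested probes 15.3% were called in high and 15.6% in low glucose without both libraries.

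With glucose, 9.53% of all tested probes were called in B6 and 11.6% in BLKS islets as labelled. The same lists held 13 endothelial, 17 stellate and fibroblast, 24 acinar, 33 endocrine and 18 macrophage and leukocyte tested genes. In B6 islets 3 stellate and fibroblast genes rose (Dcn, 0.39, Lum, 0.35, and Pdgfra, 0.17), 2 endothelial genes fell (Emcn, -0.45, and Kdr, -0.29), and of the acinar genes Bhlha15 rose (0.36) and Ctrb1 fell (-0.36). In BLKS islets 4 endothelial genes fell (Emcn, -0.52, Flt1, -0.41, Kdr, -0.31, and Cdh5, -0.30), Tagln fell (-0.42), Lyz2 fell (-0.60), and Cel (-0.34) and Ctrb1 (-0.32) fell. Without both libraries Pdgfra in B6, and Kdr, Lyz2 and Cel in BLKS islets, were no longer called. As labelled, endocrine genes were called in both directions, 2 higher and 4 lower in B6 and 2 higher and 5 lower in BLKS islets. Among them Ucn3 was lower in high glucose in B6 (-0.65) and BLKS (-0.54) and Pcsk1 higher in both (0.40 and 0.44).

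**Figure D5:**
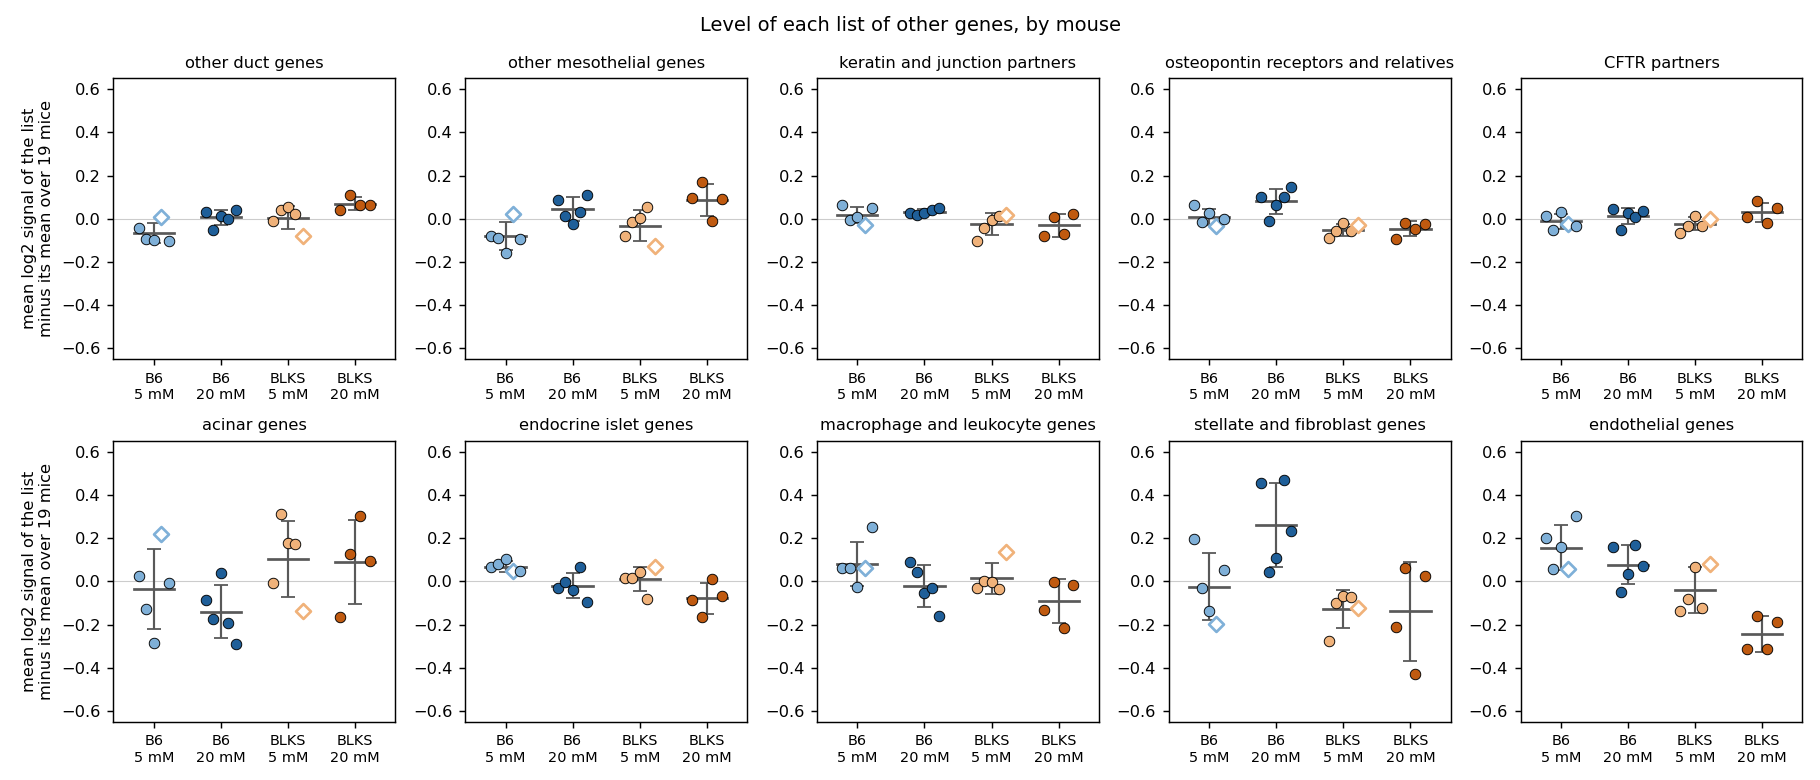
Mean log2 signal over the tested genes of each of 10 lists of other genes, minus the mean of the list over the 19 mice (vertical axis), in every mouse by strain and glucose concentration; bars and error bars are group means and SD, and open diamonds are libraries B6 low 4 and BLKS low 5. Endothelial genes lie lowest in BLKS islets in 20 mM glucose, and the lists of duct and mesothelial genes stay within 0.2 of 0.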

How the data were processed

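RNA of 19 islet samples was measured on 20 2-colour Agilent arrays. The deposited intensity values are processed signals of Agilent Feature Extraction (version 9.5.3.1 per the file headers and 8.1 per the labels), normalized by the software between the dyes of an array by linear and LOWESS fits, without background subtraction, so small log2 differences of dim probes are compressed. The authors also deposited log2 values, which are mean spot signals averaged over dyes, without scaling between arrays.

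Control spots and outlier spots (12 to 38 per array and dye) were left out, log2 values were scaled between arrays (Aquantile), spots of a probe and then the dyes of a mouse were averaged, and probes well above background in all channels in at least 4 mice were tested (29326 of 41174). That call was given to 83.9% of negative control spots in Cy3 and 0.318% in Cy5. No member spot was saturated. Limma 3.58.1 in R 4.3.3 fitted a mean for each of the 4 groups, with Benjamini-Hochberg adjustment at 0.05, and all adjusted p-values are from limma unless a permutation test is named, which was 2-sided (scipy, with the smaller tail doubled). Other tools were scipy 1.17.1, pandas 2.3.3 and numpy 2.4.6 under Python 3.11.15, and the R package data.table (version 1.17.8). On simulated data for the strain difference in high glucose, limma recovered 94% of probes changed by 0.5 and 100% of those changed by 1 on the log2 scale, and 7.18% of its calls among 29323 probes were false. Normal noise was drawn for each mouse alone, without the likeness of mice on an array pair, so these shares need not hold for the real data.

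Named genes were all member probes, up to 4 called genes per list and comparison with the largest change (brightest probe), the 5 probes most like Spp1 and Msln, and called neighbours (those of Muc1 are not reported here). By accession or symbol in RefSeq (GRCm38.p6), 24092 of 29326 probes (82.2%) were matched to genes. Members and lists were chosen with earlier results of these data known.

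Mice on the same array pair deviated from their group means together (correlation 0.0201 to 0.694, median 0.482, over 9 pairs; median -0.0533 for other pairs of mice), so the pair served as a block among the alternatives. Further alternatives were other background correction, scaling, filters and dyes, outlier spots kept, the authors' log2 table, later-scanned arrays left out, the methods' linear model, and mice left out.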

Additional observations from a re-analysis of the deposited data

Results flagged for a closer look

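Of 44 groups of values, 8 held a mouse whose gap to the nearest other mouse, divided by the range of the group, passed Dixon's critical value (0.829 for 4 mice and 0.71 for 5), where chance alone flags about 1 in 20 groups. Library B6 low 4 was the highest of its group at Spp1 (gap over range 0.817) and Krt18 (0.93) and the lowest at Msln (0.837). Library BLKS low 5 was the lowest of its group at Spp1 (0.714), Krt8 (A_51_P242399, 0.746) and Krt19 (0.81). These are 6 of the 8, and at all of them the mouse lay on the side of the other strain. In high glucose, BLKS high glucose 3 was the lowest of its group at Spp1 (0.893), and BLKS high glucose 2 was the highest at Krt8 (A_51_P242399, 0.981).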

How the results depend on the processing

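Counts of member probes called, of 11, moved as follows, with the share of all tested probes in brackets. In high glucose, 3 (11.1%) were called between strains. The count was 6 (15.3%) without libraries B6 low 4 and BLKS low 5, 5 (20.8%) with array pair as a fixed replicate block, 6 (25.2%) as a random block and 6 (22.5%) by the methods' linear model. It was 1 to 5 with single mice left out. In low glucose, against 0, it was 8 (15.6%) without both libraries, the dim Sox9 probe A_52_P577484 among them, and 1 (4.26%) with Cy3 alone. It was 2 (8.42%) with the fixed and 5 (16.1%) with the random block, and 5 (12.6%) by the methods' model. With single mice left out it was 0 to 5. For glucose in B6, against 1 (9.53%), it was 3 (12.2%) without both libraries, 2 (18.9%) by the methods' model, 0 without scaling between arrays (5.47%), in the authors' log2 table (4.13%), with Cy5 alone (6.86%), with the random block (8.28%) or without later-scanned arrays (7.82%), and 0 to 2 with single mice left out. For glucose in BLKS, against 1 (11.6%), it was 2 without both libraries (9.9%), with quantile normalization (11.8%) or with Cy3 alone (12.1%), 0 (3.4%) in the authors' table, 4 (22.6%) by the methods' model and 1 to 3 with single mice left out.

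Settings added after seeing the data all lacked the doubtful mice. The fixed block without array pairs 4 and 5 of low glucose gave 6 (22.1%) in high and 6 (16.4%) in low glucose. The random block without both libraries gave 7 (27.2%) and 9 (25.4%), the 9 again with Sox9 (A_52_P577484). It gave 3 (10.6%) for B6, 2 (10.9%) for BLKS and, for the difference between responses, 1 against 0. No scaling without both libraries gave 5 (8.59%) and 6 (8.87%), and 2 (7.71%) for B6. Covariation passed in 10 pairs with all 19 mice, against 0.

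Over 1986 values of single probes, 61 changed sign without a call in either setting (lowest adjusted p = 0.13). Call status was kept by 1859, those 61 among them, while 100 gained and 27 lost the call, and 0 called values turned sign. Spp1 in high glucose lost it also without scaling (adjusted p = 0.0526), without a filter (0.063), in the authors' table (0.0558), with Cy5 alone (0.0523) and without later-scanned arrays (0.0612). Krt7 (A_52_P410685) in BLKS lost it in the authors' table (0.0886). The cause was not tested. Without scaling, calls over all probes were 576 higher and 995 lower between strains in high glucose (1460 and 1798 with it), 558 and 1046 for glucose in B6 (1587 and 1209) and 676 and 1475 in BLKS (1899 and 1504). Signals near background limit Sox9, Muc1, Krt19 and Cftr.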
